A study of Mus musculus with 45 samples.

Results

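The comparison described here set tuft cells from mice on a high fat diet (HFD) against tuft cells from mice on a reference fat diet (RFD) after long feeding. It used 23 of the 45 libraries of the series, 11 on RFD and 12 on HFD, each made in bulk from the cells of 1 mouse and chosen by the set and the diet in its label. The mice were male C57BL/6J, 5 weeks old at arrival, and were kept at 30°C with 4 mice per cage. After 1 week on chow they received either RFD, with 10% of the energy from fat, or HFD, with 60%, and the labels name no transgene or other agent. The labels state 9 weeks of feeding for every library of the series, and the set used here was read as the 22 week feeding that the study's methods describe. Live cells that carried the epithelial protein EpCAM and the lectin Siglec-F were sorted from 20 cm of small intestine. In the study's methods the sorted cells are described both as positive for the leukocyte protein CD45 and as chosen to exclude it. Their RNA was amplified by the Smart-seq2 method, which does not keep the strand, so a gene and an antisense partner cannot be told apart. The question of the comparison was how long exposure to dietary fat changes the transcripts of these cells.

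Tuft cells are rare chemosensory cells of the gut epithelium that use taste-type signalling, make the cytokine interleukin 25 and start type 2 immune responses. They sit among absorptive enterocytes, which take up fatty acids, oxidize part of them, rebuild the rest into triglyceride and export it in chylomicrons. Dietary fatty acids activate the nuclear receptor PPAR alpha, which pairs with RXR on direct repeats of a short half-site in the DNA and is known to raise genes of fatty acid uptake, oxidation, storage and ketone body synthesis. MHC class I molecules, with beta-2-microglobulin as their common light chain, display peptides from inside the cell, and interferons raise their genes.

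The libraries held 829184 to 3476758 reads on genes on RFD and 661598 to 4690213 on HFD. The summed level of 23 tuft cell markers, in CPM (reads of a gene per 1000000 normalized reads of the library), was 28860 at the median on RFD (6273 to 40680) and 21680 on HFD (2033 to 38030). Tuft markers were thus present in every library, 0 of the 23 passed the test between diets, and their sums were lowest in RFD mouse 1 and HFD mouse 6. Dclk1, the tuft cell kinase, had 409 to 2390 CPM on RFD (median 1790) and 161 to 3057 CPM on HFD (median 1612). Markers of other cells were present as well: the enterocyte list summed to a median of 12790 CPM on RFD and 11780 on HFD, and the Paneth cell list to 1863 and 12520, with its highest value, 157200, in HFD mouse 7. Further libraries stood apart in other ways. RFD mouse 3 had a read in only 8593 genes, against 12674 to 22407 in the others, and HFD mouse 31 had 1597 CPM of myeloid markers, against at most 113.5 in any RFD mouse. In bulk samples, fewer cells of a type and less RNA per cell cannot be told apart.

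Of the 14020 genes tested, 102 (0.728%) passed an adjusted p under 0.1 between the diets, 61 higher on HFD (0.435%) and 41 lower (0.292%). Adjusted p-values come from the quasi-likelihood test of edgeR and were corrected by the Benjamini-Hochberg method over all genes tested, and "rose" and "fell" are used for genes that passed it. The higher genes included transporters, acyl-CoA enzymes and droplet proteins of fat handling together with retinoid and detoxifying enzymes. The lower genes included the classical MHC class I heavy chains with their light chain, glucose transport and starch digestion, and 6 members of a list of enteroendocrine markers. The median log2 fold change over all genes was -0.03, close to 0. In 28 of the higher genes all 12 HFD mice were above the RFD median, and in 36 of the lower genes all 12 were below it. These genes were picked on the same values, and the share over all genes tested was not computed. For single genes below, passed or not, such counts of mice are descriptions. In only 2 genes, Me1 and Mbl2, did the values of the diets not overlap at all, which was 0.0143% of the genes tested. Of the 61 higher genes, 26 were at 0 in RFD mouse 3, the library with the fewest genes read, and 10 were at 0 there alone. With RFD mouse 3, HFD mouse 6 and HFD mouse 31 left out together, a choice made after seeing the data, 225 genes passed, 104 higher and 121 lower, and 93 of the 102 were among them. Each library was also left out in turn, and 54 of the 102 genes passed in all 23 of these fits. Among the genes described below, calls with an adjusted p above 0.05 held in fewer fits. Hadhb passed in 17, Plin2 in 16, Acadvl and Cyp4f16 in 15, C1qa in 14, and C1qc, Fcgr3 and Mmp10 in 13. Apoc2 and H2-Q10 passed in 12, H2-T22 and Ndufa4 in 11, Acot4 in 10, Mttp and H2-D1 in 9 and Retsat in 7. The counts for Akr1b7, Oas1g and Ddx60 are given where these genes are described.

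Promoters of 4 fat handling genes that rose are shown because each holds the kind of element that PPAR and HNF4 receptors are known to bind. The element searched was AGGTCANAGGTCA, a direct repeat with 1 base between its half-sites (DR1), on both strands and with at most 2 mismatches over its 12 fixed positions. Each line gives the 250 bases before a RefSeq start of the gene (build GRCm38.p6), 5′ to 3′ on the strand of the gene, with the match in capitals. Where a gene had several starts, the start with the closest match was kept. The Cd36 start shown lies inside the annotated gene, whose 5′ end is at 17888801.
Cd36, chr5:17835897-17836146, reverse strand: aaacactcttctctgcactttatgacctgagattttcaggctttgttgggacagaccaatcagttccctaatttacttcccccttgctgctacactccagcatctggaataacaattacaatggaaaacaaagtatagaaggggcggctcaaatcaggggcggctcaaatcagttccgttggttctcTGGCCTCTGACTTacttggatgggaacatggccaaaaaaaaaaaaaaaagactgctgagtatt
Cyp4f16, chr17:32536307-32536556, forward strand: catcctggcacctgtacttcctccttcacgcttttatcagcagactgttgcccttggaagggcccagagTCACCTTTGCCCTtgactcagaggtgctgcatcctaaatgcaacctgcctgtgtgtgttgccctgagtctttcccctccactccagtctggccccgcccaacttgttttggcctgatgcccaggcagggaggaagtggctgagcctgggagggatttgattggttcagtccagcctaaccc
Plin2, chr4:86670060-86670309, reverse strand: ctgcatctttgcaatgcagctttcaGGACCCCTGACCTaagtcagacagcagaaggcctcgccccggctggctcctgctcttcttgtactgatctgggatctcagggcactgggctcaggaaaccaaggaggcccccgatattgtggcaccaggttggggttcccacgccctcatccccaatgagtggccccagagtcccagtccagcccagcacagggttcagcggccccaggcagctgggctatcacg
Acot4, chr12:84038129-84038378, forward strand: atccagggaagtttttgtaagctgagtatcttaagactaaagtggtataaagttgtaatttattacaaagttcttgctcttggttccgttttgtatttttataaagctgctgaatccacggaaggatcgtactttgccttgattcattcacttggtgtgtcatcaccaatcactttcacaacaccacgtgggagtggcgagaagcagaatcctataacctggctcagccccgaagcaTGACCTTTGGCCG
All 4 matches carried 2 mismatches and read as the repeat on the opposite strand. They began 63 bases before the start in Cd36, 181 in Cyp4f16, 225 in Plin2 and 13 in Acot4. Among genes with a promoter in the RefSeq table, a match was found in 9 of 50 that rose (18%), in 0 of 37 that fell, and in 393 of 10293 genes tested (3.82%). Over all genes of the table it was found in 1190 of 27025 (4.4%). The other genes that rose with a match were Apoc2, whose site had 1 mismatch, Rbp2, Paqr7, Akr1c19 and Aldh9a1. Of the 18 fat handling genes that rose, 12 had a promoter in the table and 4 of these, the ones shown, held a match. A match describes letters in a window and is not a binding site.

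Of 20 genes for fatty acid uptake, activation and storage, 3 rose and 0 fell on HFD, 6 had a log2 fold change below 0, and the median of the list was 0.33. Slc27a2, which encodes a fatty acid transporter that also activates very long chains, had 24.3 to 83.3 CPM on RFD (median 43.7) and 60.7 to 189 CPM on HFD (median 123). No HFD mouse was below the RFD median and 8 were above every RFD mouse, and the log2 fold change was 1.34 ± 0.24 (SE, edgeR adjusted p = 0.00836). Cd36, the fatty acid translocase of the membrane, had a median of 13 CPM on RFD (0 to 36.2) and 47.6 CPM on HFD (13.5 to 139). The ranges overlapped, but no HFD mouse was below the RFD median, and Cd36 rose by 2.02 ± 0.42 on the log2 scale (edgeR adjusted p = 0.0237). Plin2, the coat protein of small lipid droplets, had 0 to 105 CPM on RFD (median 51.2) against 80.8 to 284 CPM on HFD (median 139.5), with 10 HFD mice above every RFD mouse. It rose by 1.48 ± 0.36 (SE, edgeR adjusted p = 0.054). Fabp2, the intestinal fatty acid binding protein, and Cidec, a droplet fusion protein, had log2 differences of 1.19 and 1.01 with all 12 HFD mice above the RFD median, but their edgeR adjusted p-values of 0.175 and 0.278 did not pass. Acsl5, which activates long-chain fatty acids, did not pass either (0.79, edgeR adjusted p = 0.233).

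In mitochondrial fatty acid oxidation all 18 genes had a log2 fold change above 0, with a median of 0.61, against 47.9% of all genes tested, and 4 of the 18 rose. Acadl, the long-chain acyl-CoA dehydrogenase, had 70.9 to 134 CPM on RFD (median 99.1) and 96.4 to 236 CPM on HFD (median 184). Here 11 of 12 HFD mice lay above every RFD mouse, and the log2 fold change was 0.83 ± 0.16 (SE, edgeR adjusted p = 0.013). Acaa2, the thiolase that ends a round of the cycle, went from a median of 98.8 CPM (31.5 to 332) to 330.0 CPM (91.6 to 753), a rise of 1.66 ± 0.33. The ranges of Acaa2 overlapped, 5 HFD mice being above every RFD mouse. Acadvl, which takes the longest chains, and Hadhb, the thiolase subunit of the trifunctional protein, rose by 0.91 ± 0.22 and 0.89 ± 0.21, with all 12 HFD mice above the RFD median in both. Hadha, the partner of Hadhb in that protein, had 99.6 to 233 CPM on RFD and 131 to 379.9 CPM on HFD and all 12 above the RFD median, but did not pass (0.71, edgeR adjusted p = 0.126). Cpt2, Etfa and Acadm, for carnitine transfer, electron transfer and medium chains, had log2 differences of 1.21, 0.62 and 0.57 with edgeR adjusted p-values of 0.125, 0.242 and 0.283. The Cpt2 difference includes a value of 0 in RFD mouse 3.

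In peroxisomal oxidation, which shortens very long and branched chains, 3 of 13 genes rose and all 13 had a log2 fold change above 0 (median 0.42). Abcd3, which carries such chains into the peroxisome, had 79.1 to 248 CPM on RFD (median 142) and 144 to 481 CPM on HFD (median 273). Every HFD mouse was above the RFD median and 9 were above every RFD mouse, and the log2 fold change was 0.94 ± 0.21 (edgeR adjusted p = 0.0313). Hsd17b4, the bifunctional enzyme of the pathway, rose by 1.33 ± 0.29, from a median of 65.3 to 183 CPM. Acaa1b, a peroxisomal thiolase, rose by 2.02 ± 0.46, from 9.72 to 53 CPM, and has a close copy, Acaa1a, between which the counting can divide reads. Ech1 and Scp2 had smaller differences of 0.46 and 0.42, and their edgeR adjusted p-values of 0.2 and 0.341 did not pass. Pex6, a factor of peroxisome assembly that is in none of the lists, fell by 1.45 ± 0.32, from a median of 15.7 CPM on RFD to 5.96 CPM on HFD, and 9 of 12 HFD mice were below every RFD mouse (edgeR adjusted p = 0.0303).

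Of the genes for ketone bodies, Bdh1 and Acat1, which interconvert ketone bodies and their precursors, had differences of 0.60 and 0.58 (edgeR adjusted p = 0.438 for both), with 12 and 11 HFD mice above the RFD median.

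**Figure D1:**
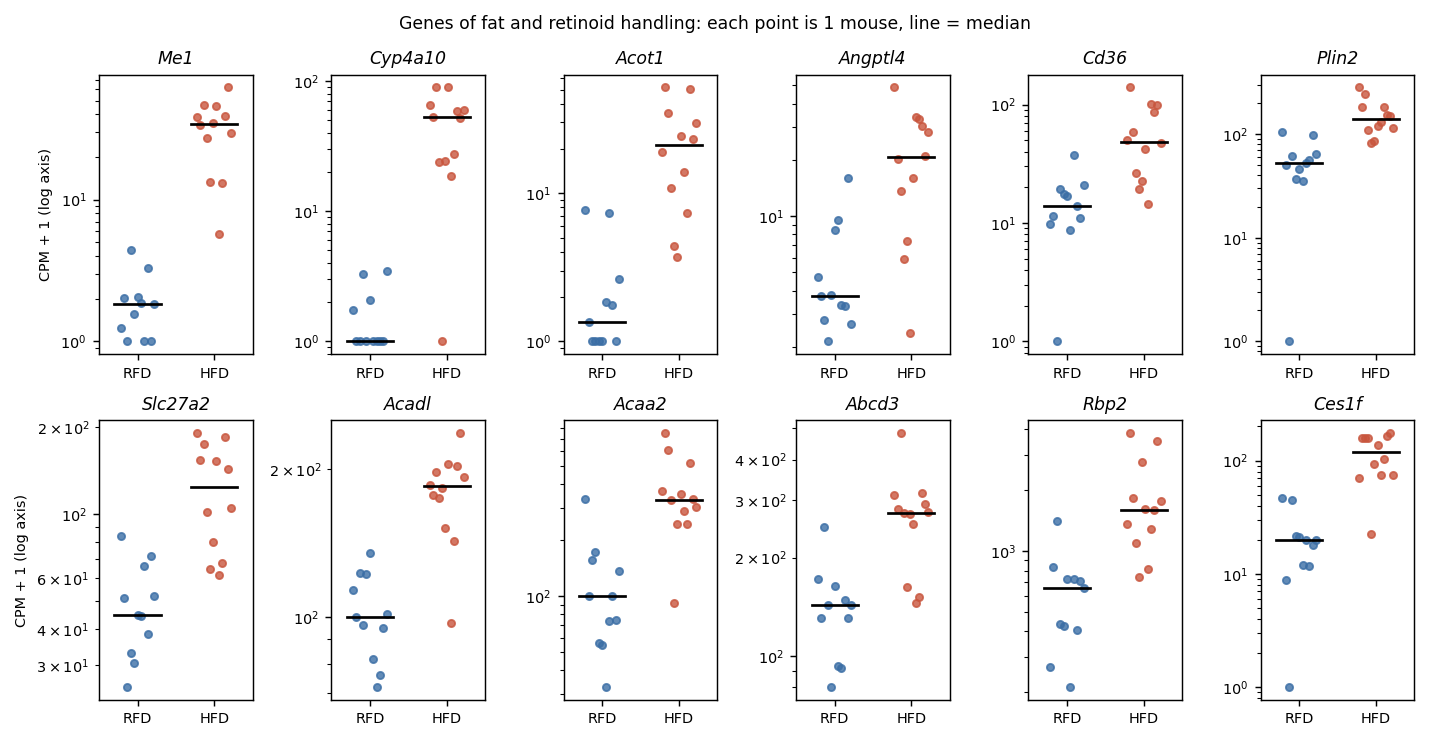
CPM + 1 on a log axis for 12 genes that rose on HFD, with 1 point per mouse, RFD (n = 11) beside HFD (n = 12), and a line at each median. The diets are fully apart for Me1 (at most 3.44 CPM on RFD, at least 4.72 CPM on HFD) and overlap in the other panels, where most HFD mice lie above the RFD median.

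Acyl-CoA thioesterases, which free fatty acids from coenzyme A, and hydroxylases, which oxidize the far end of a fatty acid, gave 4 genes that rose of 12 tested (median 0.43). Cyp4a10, a hydroxylase and a classical PPAR alpha target, never had over 3 reads in an RFD library, 10 in all, against 1113 reads over the HFD libraries. Its reads per library size were 91.8-fold higher on HFD (95% interval 49.7 to 192, counting error only), and 11 of 12 HFD mice were above every RFD mouse while 1 was at 0. Acot1, a cytosolic thioesterase, had 0 to 6.73 CPM on RFD (median 0.34) and 2.72 to 50.9 CPM on HFD (median 20.1). Acot1 rose by 3.65 ± 0.67 (edgeR adjusted p = 0.00858), with 9 HFD mice above every RFD mouse. The peroxisomal Acot4 rose by 1.79 ± 0.45, from a median of 2.67 to 12.7 CPM, and the hydroxylase Cyp4f16 by 0.96 ± 0.23, from 51.4 to 117 CPM. The Acot1, Acot4 and Cyp4a genes lie among near-identical copies, so the division of their reads is uncertain.

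Among 10 fuel genes that respond to PPAR alpha, 2 rose, and the list had a median of 0.92. Me1, the malic enzyme that makes NADPH, had at most 3 reads in any RFD library, and its reads per library size were 40.5-fold higher on HFD (95% interval 24.4 to 72.7, counting error only). For Me1 all 12 HFD mice were above every RFD mouse. Angptl4, the secreted inhibitor of lipoprotein lipase, had up to 14.9 CPM on RFD (median 2.72) and up to 47.9 CPM on HFD (median 19.6), with 8 HFD mice above every RFD mouse. It rose by 2.19 ± 0.48 (edgeR adjusted p = 0.029). Pdk4, which turns off pyruvate oxidation, had a similar difference of 2.19, from a median of 1.75 to 11.5 CPM, but did not pass (edgeR adjusted p = 0.163). Vnn1 and Aqp7, a pantetheinase and a glycerol channel, did not pass either, with differences of 1.28 and 1.38. The receptor Ppara itself was low, with 0.788 to 14.7 CPM on RFD and 0 to 18.1 CPM on HFD, and its difference of 1.16 did not pass (edgeR adjusted p = 0.438). No member of the list of 16 PPAR and HNF4 receptors and coactivators passed. The 3 with the smallest p were Ncor1, a corepressor (-0.65), Hnf4g (0.85) and the bile acid receptor gene Nr1h4 (9.19 against 21.3 CPM at the median), with edgeR adjusted p-values of 0.141, 0.224 and 0.237.

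Synthesis of fat and sterols differed less. Of 14 genes of fatty acid synthesis 1 rose, Scd1, the desaturase that makes monounsaturated fat, and the median of the list was 0.11. Scd1 had 0 to 9.07 CPM on RFD (median 2.14) and 0 to 134 CPM on HFD (median 10.6). Only 6 HFD mice were above every RFD mouse and 3 were below the RFD median, and the log2 fold change was 3.98 ± 0.87 (edgeR adjusted p = 0.0303). The regulator Srebf1 and the elongase Elovl6 had differences of 0.51 and 0.42 that did not pass (edgeR adjusted p = 0.438 and 0.593). None of 23 genes of cholesterol synthesis and uptake passed, and their median was -0.02. Within that list Idi1, of the synthesis pathway, had 0.45 and the sterol transporter Npc1l1 had -0.63.

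In the export of fat as chylomicrons, 3 of 9 genes rose. Mttp, which loads lipid onto apolipoprotein B, had 129 to 766 CPM on RFD (median 482) and 421 to 2044 CPM on HFD (median 891). For Mttp 9 HFD mice were above every RFD mouse, and it rose by 1.04 ± 0.26 (edgeR adjusted p = 0.0756). Apoc2, the activator of lipoprotein lipase, rose by 1.40 ± 0.35 from a median of 228 to 472 CPM, with all 12 HFD mice above the RFD median. Apoe also passed, but on 1 library: HFD mouse 31 had 4492 CPM and every other mouse of either diet at most 8.92 CPM. Without that mouse the log2 fold change of Apoe was -0.11 in place of 7.11. Apoa4 (0.83, edgeR adjusted p = 0.417) and Apoc3 (-1.07, edgeR adjusted p = 0.175) did not pass and had opposite signs, with 11 HFD mice above and 12 below the RFD median, respectively.

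Of 12 retinoid genes 3 rose and 0 fell, and the median was 0.88. Rbp2, the retinol binding protein of absorptive cells, had 211 to 1402 CPM on RFD (median 657) and 747 to 3840 CPM on HFD (median 1602), and all 12 HFD mice were above the RFD median. Rbp2 rose by 1.58 ± 0.30 (edgeR adjusted p = 0.013). Retsat, a retinol saturase, rose by 1.40 ± 0.36 from a median of 54.4 to 188 CPM, and Aldh1a1, which makes retinoic acid, by 2.30 ± 0.41 from 35.4 to 165 CPM. Dhrs4, a retinal reductase, had 1.18 (edgeR adjusted p = 0.222). Of the 12 genes 2 were below 0, the lowest being Bco1, which cleaves beta-carotene, at -1.76 (unadjusted p = 0.0374, edgeR adjusted p = 0.456). Of 18 carboxylesterase and glutathione genes 4 rose, and 17 had a log2 fold change above 0 (median 1.05). Mgst1, a membrane glutathione transferase, had 29.8 to 263 CPM on RFD (median 64.6) and 101 to 559 CPM on HFD (median 279.6), all 12 above the RFD median. It rose by 1.64 ± 0.34 (edgeR adjusted p = 0.0237). The lipid esterase Aadac rose by 1.83 ± 0.39 from a median of 80.8 to 339 CPM, the carboxylesterase Ces2c by 1.20 ± 0.28 from 135 to 329 CPM, and Ces1f by 2.54 ± 0.40 from 18.9 to 118 CPM. Nqo1, a quinone reductase, had 1.38 with all 12 HFD mice above the RFD median but did not pass (edgeR adjusted p = 0.278). The carboxylesterases and glutathione transferases form families of close copies, and their reads are uncertain between members.

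The lists of pathways that share carriers and end products with fat oxidation held no gene that passed. These were the citrate cycle (17 genes, 15 of them above 0, median 0.36), breakdown of branched-chain amino acids (17 genes, median 0.34), glycolysis (20 genes, median 0.11) and the nuclear genes of the respiratory chain (22 genes, median 0.21). Pccb, of propionate breakdown, came nearest with 33.4 CPM at the RFD median and 76.4 CPM at the HFD median (1.24, edgeR adjusted p = 0.124). Outside these lists, Ndufa4, a nuclear gene of the respiratory chain chosen after its values were seen, rose by 0.65 ± 0.16 (edgeR adjusted p = 0.0711). All 12 HFD mice were above the RFD median for Ndufa4. The lists of the unfolded protein response (17 genes), the circadian clock (16 genes) and immediate early and heat shock genes (14 genes) likewise held no gene that passed. Over these lists the largest single difference was that of the heat shock gene Hspa1a, -2.89 with an edgeR adjusted p of 0.135.

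**Figure D2:**
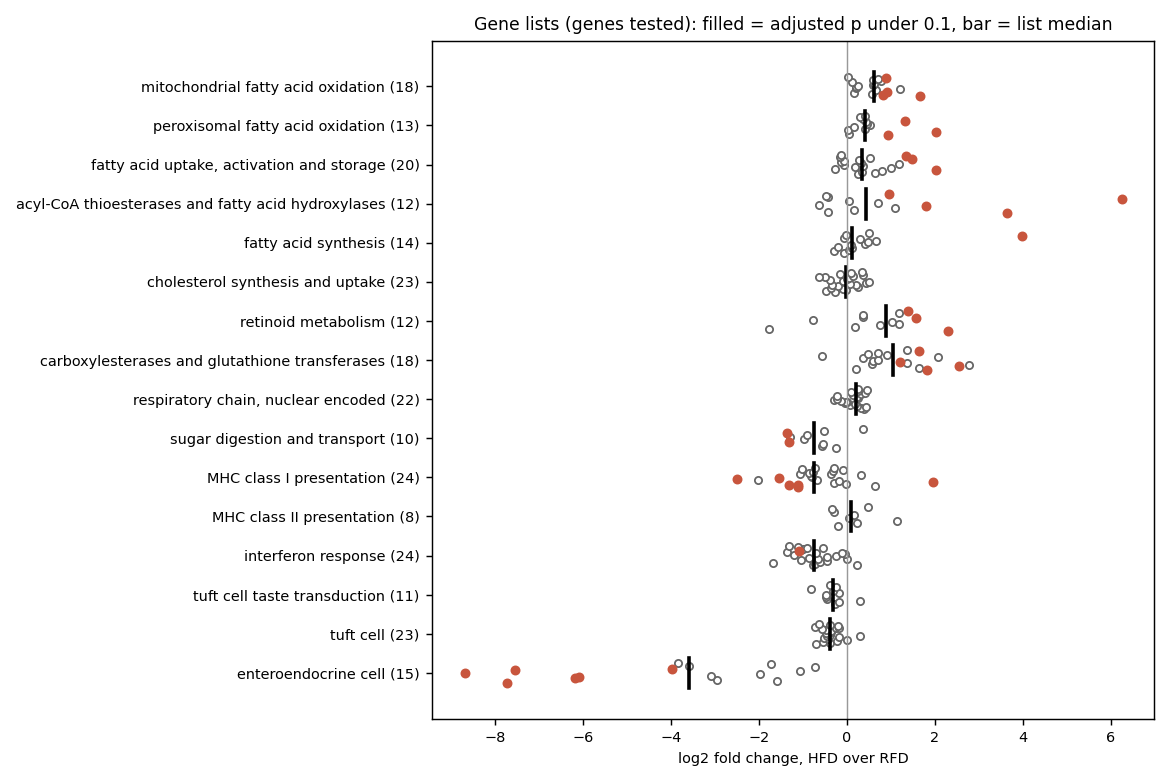
Log2 fold change of HFD against RFD for each tested gene of 16 lists, with 1 point per gene, filled where the edgeR adjusted p was under 0.1, and a bar at the median of the list. The medians of fat oxidation, retinoid metabolism and esterases lie to the right of 0, and those of sugar digestion, MHC class I, interferon response and enteroendocrine markers to the left.

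These fat and retinoid genes are also genes of enterocytes, and the enterocyte markers were therefore set beside them. The 15 enterocyte markers summed to 3539 to 29730 CPM on RFD and 5568 to 25780 CPM on HFD, 1 of them rose (Rbp2), 1 fell (Slc5a1), and the median was -0.15. With the mean level of these markers as a covariate, an alternative chosen after seeing the data, 97 of the 102 genes still passed. With the difference between tuft and other markers as a covariate all 102 did. Both covariates include genes that passed, among them Rbp2 and Slc5a1. They adjust for the level of markers and not for a diet difference within the cells of a type. Whether the fat and retinoid transcripts came from tuft cells or from enterocytes cannot be told apart. Goblet cell and Paneth cell markers had medians of 0.83 and 1.30 with 0 genes that passed among 9 and 10, and stem and dividing cell markers had 0.72 with 0 of 10. Their part in the results was not tested.

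Of 10 genes for sugar digestion and transport 2 fell and 0 rose, 9 had a log2 fold change below 0, and the median was -0.74, or -0.35 with RFD mouse 3 left out. Slc5a1, the sodium-coupled glucose transporter, had 383 to 3052 CPM on RFD (median 1380) and 264 to 1210 CPM on HFD (median 532). All 12 HFD mice were below the RFD median, 5 below every RFD mouse, and Slc5a1 fell by 1.36 on the log2 scale (SE 0.29, edgeR adjusted p = 0.0289). Mgam, a starch-digesting enzyme of the brush border, had 116 to 563 CPM on RFD (median 438) and 72.9 to 357 CPM on HFD (median 156), again with all 12 HFD mice below the RFD median. The log2 fold change of Mgam was -1.32 ± 0.25 (edgeR adjusted p = 0.0114). Its neighbour in function Sis, the sucrase, had -0.98 with all 12 below the RFD median and did not pass (edgeR adjusted p = 0.153). The glucose exporter Slc2a2 (-1.30), the fructose transporter Slc2a5 (-0.92) and the fructose kinase gene Khk (-0.57) did not pass either, with edgeR adjusted p-values of 0.17, 0.342 and 0.462.

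Of 24 genes of class I presentation 5 fell and 1 rose, 21 had a log2 fold change below 0, and the median was -0.75. B2m, the light chain shared by all class I molecules, had 702 to 4917 CPM on RFD (median 2116) and 734 to 1870 CPM on HFD (median 950.0). The ranges overlapped at the low end, but all 12 HFD mice were below the RFD median, and B2m fell by 1.12 (SE 0.22, edgeR adjusted p = 0.013). The heavy chain H2-K1 had 941 to 6499 CPM on RFD (median 2723) and 797 to 1911 CPM on HFD (median 1115). H2-D1, the second classical heavy chain, had a median of 8421 CPM (2214 to 16005) against 3840 CPM (1101 to 6213). All 12 HFD mice were below the RFD median for both genes, with log2 fold changes of -1.33 ± 0.23 for H2-K1 (edgeR adjusted p = 0.00429) and -1.11 ± 0.28 for H2-D1 (edgeR adjusted p = 0.073). Of the nonclassical heavy chains, H2-Q7 fell by 2.49 (SE 0.44) from a median of 84.8 to 13.4 CPM, and H2-T22 by 1.55 (SE 0.39) from 50.4 to 16.2 CPM. The exception was H2-Q10, a secreted heavy chain, which rose by 1.96 ± 0.49 from a median of 7.42 to 20.6 CPM, with all 12 HFD mice above the RFD median (edgeR adjusted p = 0.0711). The H2 genes are near-identical, so their reads are divided with error, whereas B2m has no such copy. Tap1 and Psmb9, which transport and cut peptides for class I, had -1.03 and -0.77 with 11 of 12 HFD mice below the RFD median and did not pass (edgeR adjusted p = 0.101 and 0.201). H2-Q6 (-2.02) and H2-T23 (-0.80) did not pass, at 0.137 and 0.25. Of 8 genes of MHC class II presentation none passed, and their median of 0.10 became -1.30 without HFD mouse 31.

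Of 24 interferon response genes 23 had a log2 fold change below 0 and the median was -0.75, but only Oas1a fell. Oas1a, an antiviral synthetase, had 87.5 to 394 CPM on RFD (median 206) and 35 to 172 CPM on HFD (median 100.2). The ranges overlapped, all 12 HFD mice were below the RFD median, and Oas1a fell by 1.09 (SE 0.24, edgeR adjusted p = 0.03). Isg15, the ubiquitin-like modifier, had 81.1 against 35.4 CPM at the median and all 12 HFD mice below the RFD median. Irf7, the regulator of interferon genes, had 627 against 303 CPM and again 12 of 12 below. Neither passed, with differences of -1.36 and -1.21 and edgeR adjusted p-values of 0.101 and 0.109. Oasl2 (-1.05) and Zbp1 (-1.32) did not pass. Beside these lists, 13 markers of intraepithelial T cells, 8 of them tested, summed to 2.667 to 154.9 CPM on RFD (median 19.94) and 1.541 to 83.47 CPM on HFD (median 8.585). All 8 tested markers had a log2 fold change below 0, 0 passed, and their part in the result was not tested. Cd3d, Cd3g, Cd247, Trac and Trdc were below the filter on low counts but are part of the sum. In the list of mucosal lectins and antimicrobials, 1 of 9 genes fell. This was Mbl2, a mannose-binding lectin of complement, which had 0.852 to 57.6 CPM on RFD (median 10.3) and no read in any of the 12 HFD libraries. With 3 reads as the limit for each HFD library (0.627 to 4.09 CPM), Mbl2 was at least 8.31-fold lower. The antimicrobial lectin Reg3a had 0.94 and all 12 HFD mice above the RFD median without passing (edgeR adjusted p = 0.197).

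**Figure D3:**
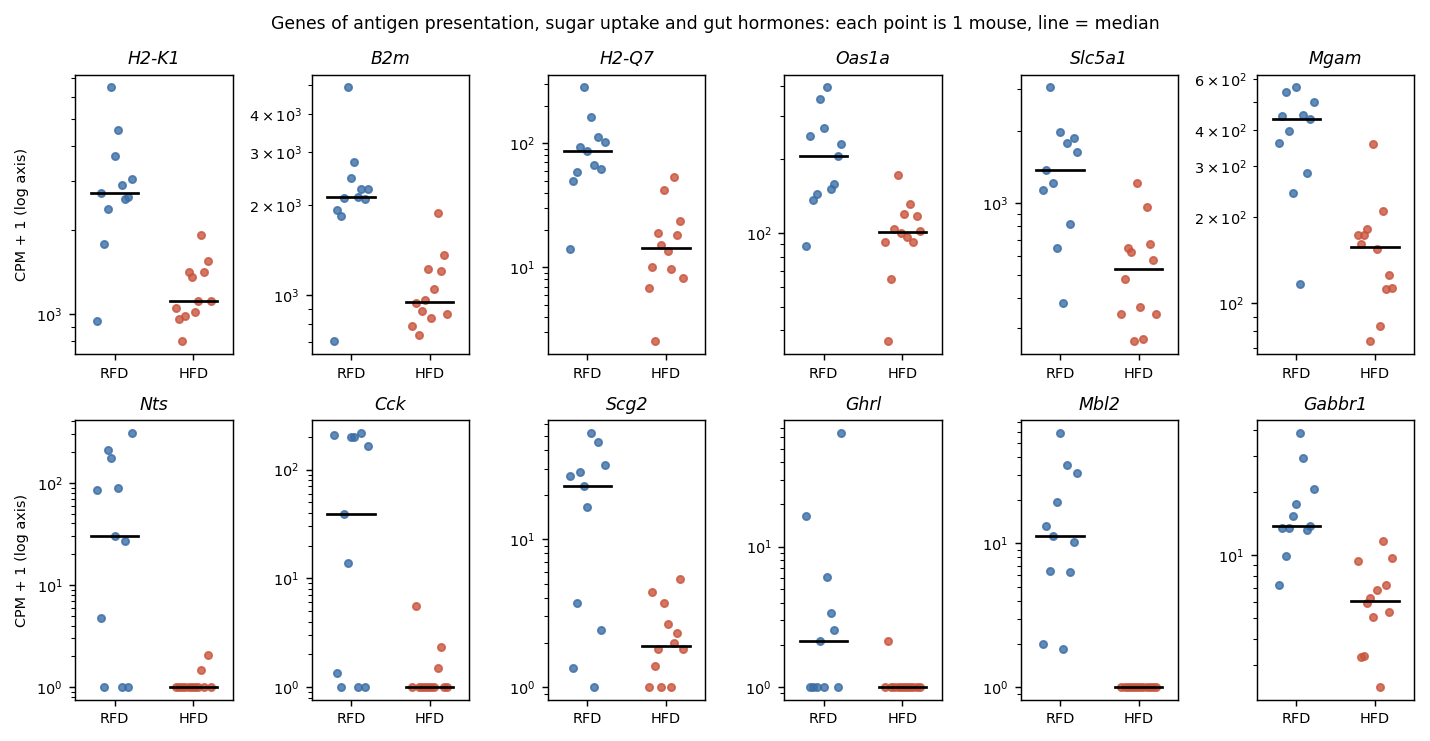
CPM + 1 on a log axis for 12 genes that fell on HFD, with 1 point per mouse, RFD (n = 11) beside HFD (n = 12), and a line at each median. Every HFD mouse is at 0 for Mbl2, the hormone genes Nts, Cck and Ghrl are near 0 on HFD and spread widely on RFD, and the 12 HFD mice are below the RFD median for B2m, H2-K1 and Slc5a1.

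Gut hormone genes had the lowest median of all lists. All 15 tested enteroendocrine markers had a log2 fold change below 0, with a median of -3.60, and 6 fell: the hormone genes Nts, Cck, Ghrl, Gcg and Pyy, and Scg2, a granule protein. Cck, for cholecystokinin, had 0 to 216 CPM on RFD (median 37.8) and 0 to 4.52 CPM on HFD (median 0), and 7 of 11 RFD mice were above every HFD mouse. RFD mice 2, 3, 21 and 23 were at most at 0.34 CPM, within the range on HFD. Nts, for neurotensin, had 0 to 307 CPM on RFD (median 29.3) and 0 to 1.08 CPM on HFD (median 0). It had 1410 reads over the RFD libraries and 3 over the HFD libraries, and per library size it was 569.8-fold lower on HFD (95% interval 194.6 to 2766, counting error only). Ghrl, for ghrelin, had 152 reads on RFD and 1 on HFD, a ratio of 184.3 (95% interval 32.6 to 7326). Gcg, the glucagon and GLP-1 precursor gene, had 660 reads on RFD and 5 on HFD, a ratio of 160 (95% interval 68.2 to 494.5). Pyy had 238 reads on RFD and 0 on HFD, so that it was at least 6.38-fold lower with 3 reads as the limit per HFD library. These intervals cover counting error alone, and the spread between RFD mice was wider: Nts was above every HFD mouse in 8 of 11 RFD mice, Pyy in 6, and Gcg and Ghrl in 5 each. RFD mice 2, 3, 21 and 23, which were low for Cck, were low for these genes too. They had at most 3.745 CPM of Nts, 2.364 CPM of Ghrl, 1.576 CPM of Gcg and 0 CPM of Pyy. Scg2 had 0 to 51.1 CPM on RFD (median 21.7) and 0 to 4.34 CPM on HFD (median 0.894) and fell by 3.97 (SE 0.77, edgeR adjusted p = 0.013). The whole marker list summed to 132.1 to 1165 CPM on RFD (median 786.7) and 82.42 to 336.1 CPM on HFD (median 204.5). Within it Sct, for secretin, had 108 to 509 CPM on RFD and 18.1 to 322 CPM on HFD and did not pass (-0.72, edgeR adjusted p = 0.456). In many HFD libraries Sct made up most of the sum, as with 175.8 of 184.4 CPM in HFD mouse 5 and 322.3 of 336.1 CPM in HFD mouse 50. The same held in RFD mouse 2 (315.2 of 330.9 CPM) but not in HFD mouse 6 (18.09 of 257.8 CPM). Chgb, a granule protein, had 45.2 against 4.25 CPM at the median (-2.96, edgeR adjusted p = 0.175). Sst and Tph1, for somatostatin and serotonin synthesis, were at 0 at the median of both diets. The sort was for Siglec-F on epithelial cells, and whether these transcripts came from sorted tuft cells or from enteroendocrine cells cannot be told apart.

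The tuft cell lists that follow gave no gene that passed the threshold. None of 23 tuft markers, 11 taste transduction genes, 13 eicosanoid genes, 9 lineage factors or 7 type 2 cytokine and receptor genes passed. Most of them were nonetheless below 0 in log2 fold change: 21 of the 23 tuft markers (median -0.39) and 10 of the 11 taste genes (median -0.31). Il25, the cytokine gene by which tuft cells start type 2 responses, had 0 to 59.6 CPM on RFD (median 29.9) and 0 to 23.3 CPM on HFD (median 13.9). For Il25 all 12 HFD mice were below the RFD median although the ranges overlapped, and the difference of -1.11 ± 0.46 did not pass (unadjusted p = 0.0226, edgeR adjusted p = 0.403). Tslp, for thymic stromal lymphopoietin, had 1.99 to 30.1 CPM on RFD (median 14.9) and 0 to 13.6 CPM on HFD (median 5.36). For Tslp too all 12 were below the RFD median, 3 of them below every RFD mouse, with a difference of -1.26 ± 0.51 that did not pass (unadjusted p = 0.0193, edgeR adjusted p = 0.381). The succinate receptor gene Sucnr1, the leukotriene gene Alox5ap, the adaptor gene Sh2d6 and the lineage factor Pou2f3 had -0.82, -0.69, -0.72 and -0.57, with at least 10 of 12 HFD mice below the RFD median each. Chat, for acetylcholine synthesis, had 131 against 69.5 CPM at the median, with all 12 HFD mice below the RFD median (-0.80, edgeR adjusted p = 0.521), and the vesicle transporter Slc18a3 had -3.00 at very low counts (edgeR adjusted p = 0.135). The summed tuft markers, lower at the HFD median as given above, moved with these genes, and their part was not tested.

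The genes for GABA receptor subunits, which the study followed as a link to nerves, gave 1 gene that fell of 7 tested. Gabbr1 encodes part of the GABA B receptor and had 6.23 to 37.5 CPM on RFD (median 12.8) and 1.35 to 10.7 CPM on HFD (median 5.07). All 12 HFD mice were below the RFD median and 9 below every RFD mouse, and Gabbr1 fell by 1.59 (SE 0.36, edgeR adjusted p = 0.0356). Of the leave-one-out fits, that without RFD mouse 40 was the only one in which Gabbr1 did not pass. Serpini1, for neuroserpin, had 33.1 and 35.4 CPM at the medians, a difference of 0.11 ± 0.37 (edgeR adjusted p = 0.952). Its values, from 0.898 to 52.8 CPM on RFD and from 3.39 to 62.4 CPM on HFD, overlapped over nearly their whole range. Ppargc1a, a coactivator of oxidative genes, had 28.3 against 14.9 CPM at the median (-0.53, edgeR adjusted p = 0.634). Mxd1 and N4bp1, a MYC antagonist and a ubiquitin-binding protein, had -0.66 and -0.78 with 11 and 12 HFD mice below the RFD median, and Klhdc3, a kelch protein gene, had 0.69 with 11 above it. None of these 3 passed (edgeR adjusted p = 0.456, 0.334 and 0.466). The sort genes Epcam (-0.17), Ptprc, which encodes CD45 (-0.14), and Siglecf (-0.20) did not pass, at 0.822, 0.946 and 0.886.

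In the labels the mice are numbered in 3 series, 1 to 8, multiples of 10 and 21 to 34, with 4, 3 and 4 mice on each diet, and HFD mouse 65 in none. The study's mice were terminated on 3 days with 1 cage of each diet per day, but the sources used here do not tie a number to a day or a cage. Within each series the diets were compared again. Of the 102 genes, 96 had the same sign in all 3 series, and the exceptions were Apoe, C1qa, C1qb, C1qc, Mmp10 and H2-T22. The 102 genes were picked on these same mice, so this count was largely fixed in advance and is no independent check. The share over all genes tested was not computed. Acadl differed by 0.77, 0.48 and 1.16 in mean log2 CPM, Slc27a2 by 1.79, 1.11 and 1.07, and Cd36 by 3.03, 0.72 and 2.10, in the order of the series above. For B2m the differences were -0.85, -1.77 and -0.77 and for H2-K1 -0.95, -2.03 and -0.92. Many list medians also had 1 sign in each series. Examples were 0.80, 0.42 and 0.67 for mitochondrial fatty acid oxidation, -0.34, -1.18 and -0.47 for MHC class I, and -0.69, -1.40 and -0.86 for the interferon response. The same held, among others, for peroxisomal oxidation, retinoid metabolism, sugar digestion and transport, and the enteroendocrine and tuft cell markers. Other list medians changed sign between series, among them fatty acid synthesis (1.20, -0.26 and 0.14), MHC class II (-3.06, -1.77 and 0.31), the enterocyte markers (-0.22, -0.41 and 0.25) and the goblet and Paneth cell markers. The medians over all genes were 0.28, -0.14 and -0.07. A test of whether the diet difference varied among the series, the diet by number series interaction in edgeR's quasi-likelihood fit, found 0 genes with an adjusted p under 0.1. At an unadjusted p under 0.05 it gave 280 of the 14020 genes tested, 4 of them among the 102 (Apoe, Aadac, H2-K1 and Paqr7). DESeq2's likelihood ratio test also found 0 after adjustment. With only 3 or 4 mice of each diet in a series, a result of 0 does not show that the diet difference was the same in all series.

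**Figure D4:**
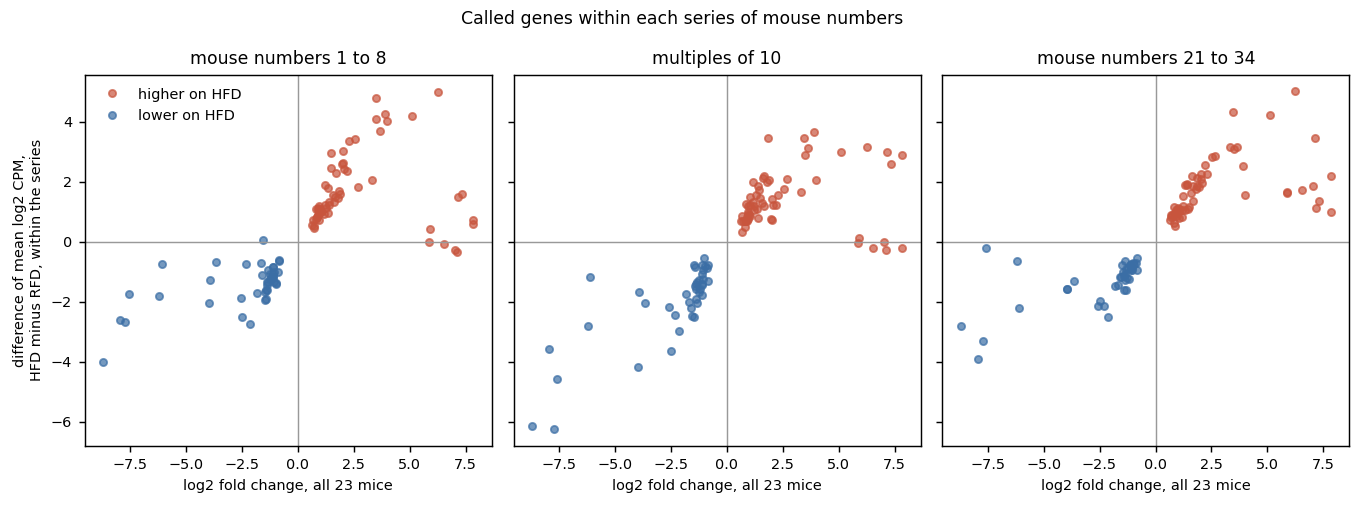
For the 102 genes that passed, the mean difference in log2 CPM between HFD and RFD within each of 3 series of mouse numbers (vertical) against the log2 fold change of the whole comparison (horizontal), with 1 point per gene and series. Of the 102 genes, which were picked on these same mice, 96 lie on the same side of 0 in all 3 series.

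A few calls rested on 1 or a few HFD mice and on genes of other cells, and some of these genes were chosen after their values were seen. C1qb, a complement gene of macrophages, had 459 CPM in HFD mouse 31 and at most 0.557 CPM in any RFD mouse. C1qa, C1qc, Fcgr3 and the protease gene Mmp10 were likewise highest in that mouse, at 305, 205, 124 and 192 CPM. Without HFD mouse 31 the log2 fold changes of C1qa, C1qc and Mmp10 were below 0, the adjusted p of C1qb was 0.863 (edgeR's quasi-likelihood test), and Apoe, also highest there, had an adjusted p of 0.98. The 11 markers of eosinophils and myeloid cells, 5 of them tested, summed to 4.492 to 113.5 CPM on RFD (median 14.95) and 1.463 to 1597 CPM on HFD (median 15.56). The eosinophil markers Prg2, Epx, Ear1, Ear2, Ear6 and Il5ra were below the filter on low counts but are part of the sum. Haemoglobin genes rose as well: Hbb-bs had 868 reads on HFD and 5 on RFD, with 462 CPM in HFD mouse 70, 115.5 CPM in HFD mouse 31 and a median of 0 CPM on HFD. Without HFD mouse 70, Hba-a1 did not pass (adjusted p = 0.112, edgeR's quasi-likelihood test).

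**Figure D5:**
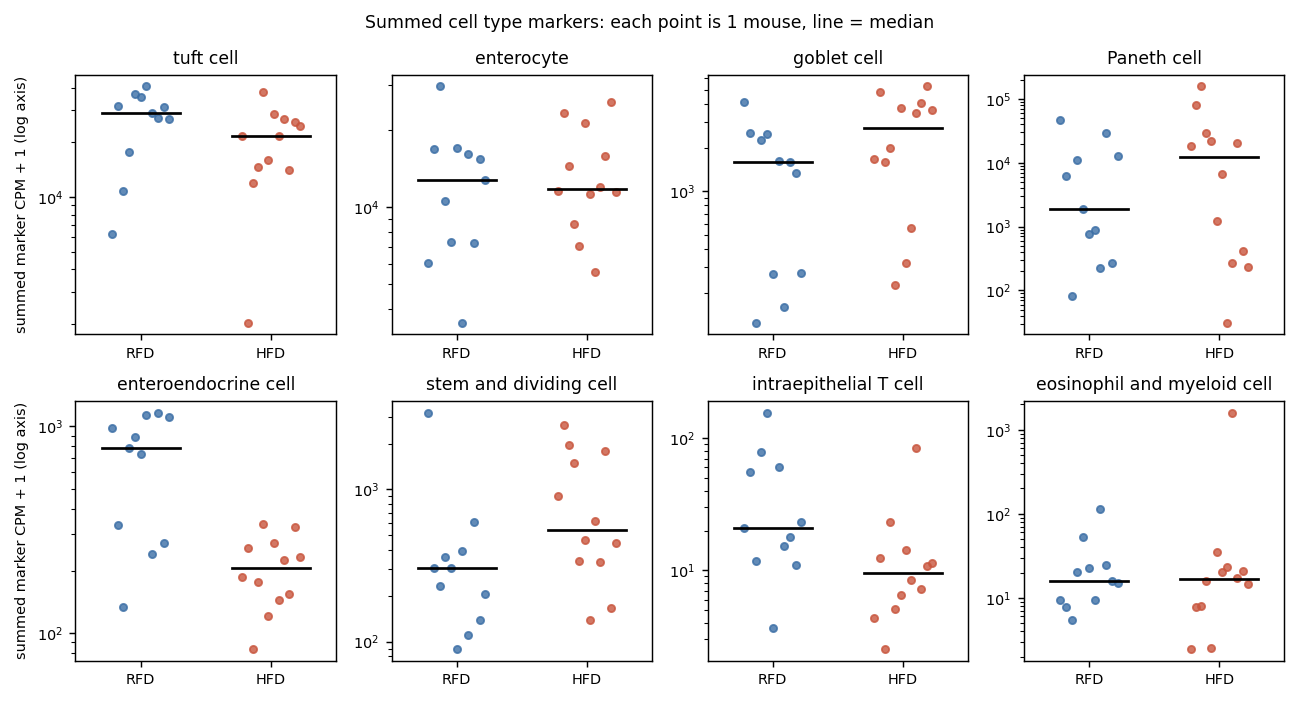
Summed CPM of 8 cell type marker lists on a log axis, with 1 point per mouse, RFD (n = 11) beside HFD (n = 12), and a line at each median. Tuft markers are present in every library (2033 to 40680 CPM). They are lowest in HFD mouse 6, where the Paneth sum is 79700 CPM and the enterocyte sum 23390 CPM. The enteroendocrine sum is lower on HFD (median 204.5 against 786.7 CPM), and the Paneth and myeloid sums spread over several orders of magnitude.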

How the data were processed

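Bulk RNA-seq of sorted small intestinal tuft cells was analysed in 23 libraries, 1 per mouse, grouped by the diet in the sample titles. Per the submitters' processing notes, the authors trimmed reads with cutadapt 1.15, aligned them to GRCm38 with STAR 2.6.0 and quantified genes with RSEM. The estimated counts deposited by the authors are not normalized, and 8.95% of those above 0 were not whole numbers, because RSEM divides reads among similar genes. The TPM values deposited by the authors come from the same quantification and served as a check. The deposited FPKM tables, the TPM table of the short feeding set and 12 columns without a sample label were not used here. The authors' test and their weighing by cell type proportions were not repeated.

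Counts were rounded. A gene was tested if at least 6 of the 45 labelled libraries had more than 5 of its reads, 14020 in all, under GENCODE M21 symbols (47224 of 47729 identifiers had one). Library sizes were scaled by TMM, and the diets were compared with edgeR 4.0.16 in R 4.3.3, by the quasi-likelihood test with Benjamini-Hochberg adjustment over all genes tested and a threshold of 0.1. CPM are TMM-scaled reads per 1000000. The biological coefficient of variation was 0.7017. Log2 fold changes are HFD against RFD, ± SE. Alternatives used limma 3.58.1 on log2(TPM + 1) and log2(TPM + 0.1) and DESeq2 1.42.0. The code was tested on simulated data. For called genes with at most 3 reads in every library of a diet, a ratio of summed reads with an exact 95% interval is given, or a bound from 3 reads per library. The labels do not give cages, so p-values take the mice as independent.

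The members and lists were chosen with earlier results of these data known. Named genes were the 15 higher and 15 lower genes with the smallest p among those that passed, every list member that passed, up to 4 further members of each list with the smallest p, the 2 most abundant members of each marker list, the sort genes, and genes the study follows. Promoters (250 bases before to 50 after each start) are from RefSeq, GRCm38.p6. A match was sought in the whole window, and the 250 bases before the start are printed. A few results are not reported here.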

Additional observations from a re-analysis of the deposited data

How the results depend on the processing

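No paired analysis was possible because the mice of the 2 diets share no number in the labels. The genes that passed, 102 (61 higher, 41 lower), became 351 (183 and 168) with DESeq2's Wald test, 51 (40 and 11) with limma on log2(TPM + 1), 31 (24 and 7) on log2(TPM + 0.1), 163 with number series as a term (80 lower), 224 (125 and 99) with the difference between tuft and other markers as a covariate, 268 (152 and 116) without libraries under 1000000 reads, and 63 (38 and 25) at an adjusted p under 0.05. Without a low count filter 92 genes were higher, and in a fit over all 45 libraries 25 were lower. Of the alternatives chosen after seeing the data, the newer quasi-likelihood method gave 229 (107 and 122) and leaving out RFD mouse 3, HFD mouse 6 and HFD mouse 31 gave 225 (104 and 121). The share that was higher, 59.8%, was 78.4% with limma on log2(TPM + 1) and 46.7% with the newer method. The other alternatives on the whole set of libraries stayed within 1.5 times.

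Leaving out 1 library gave 63 to 649 genes in all, 37 to 466 higher and 26 to 183 lower. RFD mouse 1 (649) and RFD mouse 3 (238) raised the count, with all 102 genes shared in both fits, and RFD mouse 10 (63), RFD mouse 40 (67) and HFD mouse 7 (68) lowered it. The causes were not tested. Of the 102 genes, 98 passed in at least 8 of 15 other alternatives and 24 in all 15. Deposited TPM medians had the same direction for 95, and 7 had equal medians.

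Changes of sign were seen in Apoe, -0.15 with DESeq2's Wald test and -0.11 to 7.51 with 1 library left out. C1qa, C1qc and Mmp10 also changed sign, at -1.16, -0.23 and -0.36 with DESeq2's Wald test and -2.17, -0.16 and -1.02 without the 3 libraries above. With 1 library left out they ranged from -2.04 to 7.20, -0.14 to 6.54 and -0.94 to 7.94, each lowest without HFD mouse 31. Dclk1 was at -0.39 with limma under both pseudocounts, -0.023 without libraries under 1000000 reads, -0.022 with the enterocyte covariate, and -0.11 to 0.11 with 1 library left out. Ptprc was at 0.034 and 0.068 with limma, and Serpini1 at -0.0198 without RFD mouse 3 (up to 0.21). Dclk1, Ptprc and Serpini1 had not passed. Genes near 0 reads on a diet are limited by depth, so only bounds or wide intervals are given.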

Other observations

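Several genes that belong to none of the lists passed with small p-values. Paqr7, a membrane progestin receptor gene, rose by 3.89 ± 0.54 on the log2 scale, from a median of 2.47 CPM on RFD to 33.1 CPM on HFD, with 10 of 12 HFD mice above every RFD mouse (edgeR adjusted p = 0.0002, quasi-likelihood test). Lamb3, a chain of the basement membrane protein laminin 332, had 0 to 11.5 CPM on RFD and 7.76 to 50.9 CPM on HFD, with 11 HFD mice above every RFD mouse, and rose by 2.07 ± 0.38. Ppa1, the cytosolic pyrophosphatase that clears the pyrophosphate of fatty acid activation, rose by 1.24 ± 0.24, and Akr1c19, an aldo-keto reductase gene with close copies, by 1.87 ± 0.38. Aldh4a1, of proline breakdown, fell by 1.81 (SE 0.37) from a median of 50.2 to 14.6 CPM, with all 12 HFD mice below the RFD median. Adcy6, an adenylyl cyclase, fell by 0.85 (SE 0.17) from 76.9 to 42.9 CPM, with 7 HFD mice below every RFD mouse (edgeR adjusted p = 0.0203).

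The following genes passed and were chosen after their values were seen. G0s2, an inhibitor of the triglyceride lipase of lipid droplets, was at a median of 0 CPM on RFD (highest 12.1) and 15.5 CPM on HFD (highest 48.5), and rose by 3.50 ± 0.74. Mfsd2a, a transporter of lysophosphatidylcholine with long-chain fatty acids, had 0 to 41.8 CPM on RFD and 31.8 to 74.8 CPM on HFD and rose by 1.46 ± 0.35, with all 12 HFD mice above the RFD median. Idh1, a cytosolic source of NADPH, rose by 0.99 ± 0.22, from 163 to 313 CPM, with 10 HFD mice above every RFD mouse. P4hb, a protein disulfide isomerase that is also a subunit of the Mttp complex, rose by 0.86 ± 0.19, from 1165 to 1967 CPM, with all 12 HFD mice above the RFD median. Ddc, an amine-forming decarboxylase, rose by 0.95 ± 0.20, from 67.4 to 125 CPM. Mgst2, a microsomal glutathione transferase, rose by 0.83 ± 0.19, with 11 HFD mice above every RFD mouse. These 6 genes had edgeR adjusted p-values from 0.0237 (G0s2) to 0.0497 (Mfsd2a), quasi-likelihood test.

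Among lower genes also chosen after their values were seen, Cyp3a11, a drug-metabolizing cytochrome, fell by 1.36 (SE 0.32), from 175 to 70 CPM, and Prnp, the prion protein gene, by 1.37 (SE 0.31), from 36.8 to 18.3 CPM. Outside the interferon list, Ddx60 and Oas1g, both known as interferon-stimulated, fell by 1.48 and 1.24. All 12 HFD mice were below the RFD median for Oas1g and 11 for Ddx60. Akr1b7, an aldose reductase gene, fell by 2.14 (SE 0.54), from a median of 75.6 to 9.19 CPM, with 7 HFD mice below every RFD mouse (edgeR adjusted p = 0.0715, quasi-likelihood test). With each library left out in turn, Akr1b7 passed in 7 of 23 fits, Oas1g in 10 and Ddx60 in 22.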
